A study of Mus musculus with 12 samples.

Results

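T cells from the small intestinal lamina propria were compared with T cells from the colon lamina propria. The comparison used the 4 single-cell libraries of batch 2 from these tissues, 1 per tissue and genotype, out of 12 libraries in the series. Cells were kept where the UMIs (unique molecular identifiers, 1 per captured transcript) of the CD3 chain genes Cd3d, Cd3e and Cd3g summed to 3 or more. That left 9388 cells of 32763 in the series, 2882 from the small intestine and 6506 from the colon.

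The mice were recipients of transferred Th1 cells, the interferon-gamma producing class of CD4 helper T cell. In the control groups the transferred cells were wildtype (Il23r wt/eGFP), with a reporter in 1 allele of the interleukin-23 receptor gene, and in the KO groups they lacked the receptor (Il23r eGFP/eGFP). All 4 groups therefore carried at least 1 reporter allele. The labels give neither the recipient strain nor its age, nor whether each library came from a separate animal, so p-values measure the spread between these libraries.

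The lamina propria is the connective tissue under the gut epithelium, where effector and resident T cells gather. T cells are directed to the small intestine mainly by the chemokine receptor CCR9, which retinoic acid induces during priming and whose ligand CCL25 is made by small intestinal epithelium, whereas GPR15 directs T cells to the colon. T cells that stay in tissue commonly carry the integrin chain CD103, encoded by Itgae, and lose the receptors that guide exit into lymph.

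The kept cells were 2069 of 2250 (92.0%) in small intestine control, 813 of 1606 (50.6%) in small intestine KO, 3246 of 3355 (96.8%) in colon control and 3260 of 3662 (89.0%) in colon KO. The small intestine KO library stood apart, with 49.4% of its cells below the CD3 minimum. The libraries held 1902990 to 11344551 UMIs in kept cells, and median depth was 2273 to 2917 UMIs per cell. Pairs of libraries shared 3 to 16 cell barcodes. Values are given in the order small intestine control, small intestine KO, colon control, colon KO, as CPM (a gene's UMIs scaled to a common library total) unless another unit is named.

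The kept cells were checked against their label as CD4 T cells. The T cell marker list summed to 7663, 7729, 7579 and 8296 CPM, with 11 of its 14 genes in the file. That list includes Cd3d, Cd3e and Cd3g, by which the cells were kept, so its level was in part fixed by the filter. None of the 11 passed between tissues by edgeR or DESeq2, with 0 at an unadjusted p under 0.05. Cd4 measured 204, 252, 222 and 269 CPM and was seen in 43.1%, 41.9%, 50.6% and 46.0% of cells. Cd8a, a chain of the CD8 co-receptor, measured 12.7, 2.63, 1.68 and 0.724 CPM and was higher in the small intestine (log2 fold change 2.65 ± 0.43, SE, adjusted p = 4.76e-05). Cd8b1, the other CD8 marker, measured 4.55, 2.10, 3.44 and 3.14 CPM and did not pass (0.11 ± 0.43, adjusted p = 0.951). Its log2 ratio was 0.32 in the control pair and -0.41 in the KO pair. At 1500 UMIs per cell, 1.61% of small intestine control cells held a Cd8a UMI, against 0.313%, 0.291% and 0.112% in the other libraries. B cell, plasma cell, erythroid and mast cell lists each summed to under 10 CPM in every library.

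Epithelial RNA differed between the libraries. The small intestinal epithelial list summed to 666, 6.31, 88.5 and 1.93 CPM, so that it was high in both control libraries and low in both KO libraries. Reg3b, an antimicrobial lectin of epithelium, measured 191 CPM in small intestine control, 0.525 in small intestine KO, 74.1 in colon control and 0.121 in colon KO. The colon epithelial list summed to 10.4, 0.525, 65.8 and 8.56 CPM. By the fit all 4 tested small intestinal epithelial genes were higher in the small intestine (Fabp2, Mttp, Reg3b and Reg3g), and both tested colon epithelial genes, Agr2 and Spink4, were lower. In the KO pair Fabp2 was counted as 2 UMIs in each tissue, Reg3b as 1 in each, and Reg3g as 0 in the small intestine and 4 in the colon (-0.57). Agr2 was counted as 1 and 0 UMIs in the small intestine against 278 and 39 in the colon. The part of this RNA in other results was not tested. In the KO pair the 3 epithelial lists were each at 17.6 CPM or lower in both libraries.

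**Figure D1:**
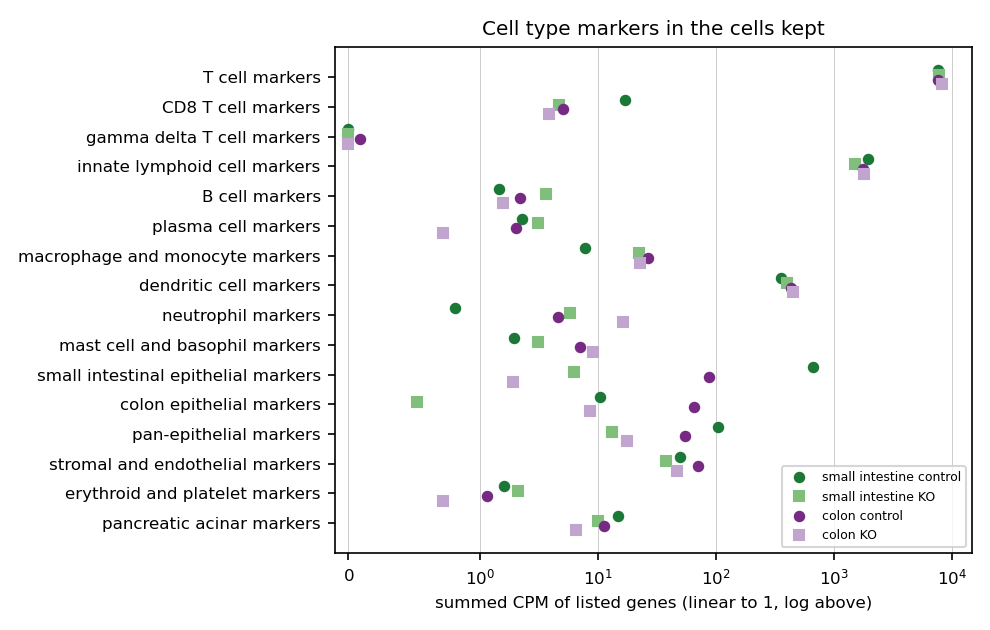
Summed CPM of each cell type marker list in the cells kept, 1 point per library (x axis linear to 1 and logarithmic above). T cell markers, which include the CD3 genes used to keep cells, lie at 7579 to 8296 CPM in all 4 libraries. Small intestinal epithelial markers range from 1.93 in colon KO to 666 in small intestine control.

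The tissues differed in a small share of genes. Of 10233 genes tested with edgeR's quasi-likelihood test and genotype as a block, 385 passed an adjusted p of 0.05 (3.76%), 197 higher in the small intestine (1.93%) and 188 lower (1.84%). The direction was the same in the control pair and the KO pair for 383 of the 385. These genes were called on the same 2 pairs, with disagreement between the pairs as spread, so this agreement is not separate support. Both small intestine libraries lay above both colon libraries for 166 of the 197 and below for 150 of the 188. Over all genes tested, 2211 (21.6%) lay above and 1495 (14.6%) below in this way.

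These calls rest on 1 residual degree of freedom and a spread shared across genes. With the other batch 2 tissues in the fit 1 gene passed (Ifitm2), with the 2 batch 1 colon libraries added 11 passed, and without the genotype block none did by edgeR (271 higher and 256 lower at an unadjusted p under 0.05). Leaving out any 1 of the 4 libraries, which also removes the block, left 0 to 17 genes higher and 0 to 55 lower. Of 73 called genes followed through these fits, 42 had a log2 fold change that moved by over 1.5 times when 1 of the libraries was left out. Of the 42, 5 changed sign (Cd160, Jun, Maff, Oas1a and Reg3b). With 1 library left out, 1 tissue holds a single genotype, so genotype differences also enter these values. Directions held more widely than calls: in each of the 16 alternative fits at least 185 of the 197 and 167 of the 188 kept their sign. These fits reuse libraries in which the genes were chosen, so kept signs were in part fixed in advance and are not separate support. No gene passed the test of a difference between genotypes in the tissue contrast (edgeR, 0 of 12079 genes, 0.0%, with 349 at an unadjusted p under 0.05). DESeq2 called 1 there, the enkephalin precursor Penk, named after its value was seen. Penk measured 39.0, 5.78, 58.4 and 78.9 CPM, so it was low in small intestine KO alone. In small intestine control 68.3% of its UMIs came from 10 cells.

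Among called genes averaging 20 CPM or more outside the marker lists, the largest difference was in the homing receptor Ccr9 (ENSMUSG00000029530, GRCm38 chr9:123678439-123784330). Ccr9 measured 223 and 101 CPM in the small intestine and 23.8 and 10.6 CPM in the colon, in control and KO in turn. Both small intestine libraries were above both colon libraries, and within each tissue the control library was above the KO library. The log2 fold change was 3.21 ± 0.16 (SE, adjusted p = 3.14e-20), or 9.28-fold, with 3.18 in the control pair and 3.13 in the KO pair. The log2 fold change was 3.22 with the batch 1 colon libraries added, where the adjusted p was 0.0776.

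At 1500 UMIs per cell, 24.5% (95% exact binomial interval 22.6 to 26.6) of small intestine control cells held a Ccr9 UMI, and 9.86% (7.66 to 12.4) of small intestine KO cells. The colon shares were 3.11% (2.52 to 3.78) in control and 1.01% (0.666 to 1.46) in KO. Unthinned shares were 33.4%, 14.3%, 6.07% and 1.84%. These intervals cover counting error only, and PCR copies are already collapsed by the UMIs. A summed level alone cannot tell fewer positive cells from less RNA per cell. For Ccr9, cells with a UMI held a median of 1 to 2 in every library.

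Lztfl1 (chr9:123694416-123717697), a regulator of ciliary protein traffic, lies within the annotated Ccr9 locus on the other strand. Lztfl1 measured 196, 184, 94.7 and 82.9 CPM and was also higher in the small intestine (1.07 ± 0.14, adjusted p = 4.97e-07). The sources used here do not give whether counting used strand, so reads of these overlapping genes may not be fully told apart.

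Cells with a Ccr9 UMI were described beside cells without one, at 1500 UMIs per cell. In small intestine control 441 cells held a Ccr9 UMI and 1357 did not. The granule protease Gzma was seen in 60.8% (56.0 to 65.4) of the first and 48.3% (45.7 to 51.0) of the second, and Cd160 in 32.7% and 26.3%. In small intestine KO, Dtx1 was seen in 42.9% (30.5 to 55.9) of 63 cells with a Ccr9 UMI and in 16.8% (13.9 to 20.2) of 576 without, whereas Cd7 was seen in 6.35% and 10.6%. In colon control Dtx1 was seen in 9.38% (4.38 to 17.05) of 96 cells with a Ccr9 UMI and in 4.01% of 2995 without. Cd160 was seen there in 21.9% and 9.2%. Only 27 colon KO cells held a Ccr9 UMI. Dtx1 was seen in 0% (0 to 12.8) of these and in 3.06% of 2649 without, and Cd160 in 0% (0 to 12.8) and 3.89%. These intervals cover the shares in cells without a Ccr9 UMI, so no order can be read in colon KO. Cells are not replicates, so no test was made.

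The other homing receptors moved less. Of 18 tested genes of the gut homing list, 2 were higher in the small intestine (Ccr9, Itgae) and 3 lower (Ccr2, Itgb1, Cxcr6), with a median log2 fold change of 0.17 against 0.00 over all genes. Ccr2, a receptor of inflammatory chemokines, measured 225, 230, 390 and 428 CPM, with no overlap between tissues (-0.87 ± 0.14, adjusted p = 2.26e-05). Itgb1, the beta-1 integrin chain, measured 32.0, 41.5, 65.0 and 71.4 CPM (-0.94 ± 0.16, adjusted p = 9.95e-05). Cxcr6, a receptor of liver and gut T cells named after its value was seen, measured 723, 458, 858 and 776 CPM (-0.52 ± 0.14, adjusted p = 0.0267). The colon homing receptor Gpr15 measured 0.162, 0.525, 0.970 and 2.89 CPM, which was too low for the filter, and it was not tested.

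**Figure D2:**
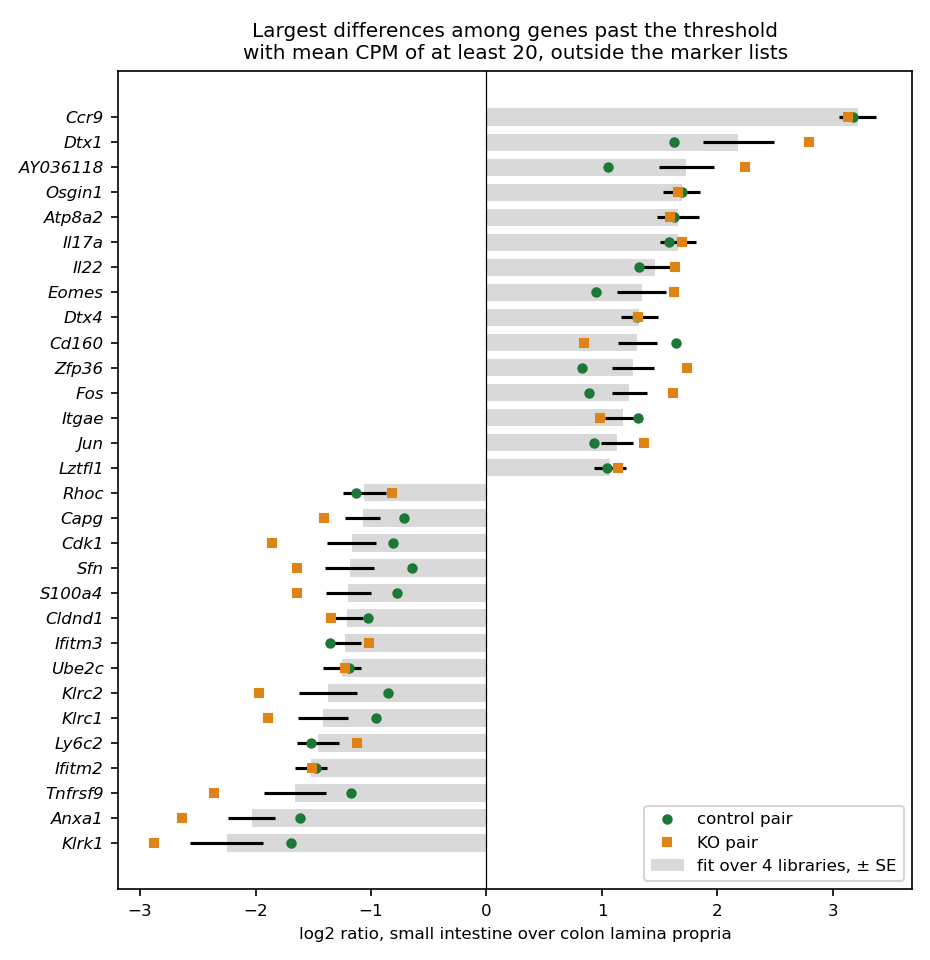
Log2 ratio of small intestine over colon lamina propria for the 15 largest differences each way among called genes with a mean of 20 CPM or more, outside the marker lists and without predicted genes or receptor segments. Grey bars are the fit over the 4 libraries with its SE, circles the control pair and squares the KO pair. Ccr9 lies at 3.18 and 3.13 in the pairs, and Klrk1 at -1.70 and -2.88.

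Of the tissue residency genes 6 of 18 tested members were higher in the small intestine and 1 was lower (Cxcr6), with a median of 0.35. Itgae (chr11:73090583-73147446) measured 156, 45.2, 62.2 and 22.3 CPM. Small intestine KO lay below colon control, so the tissues overlapped, and the difference appeared within each genotype (1.31 in the control pair, 0.99 in the KO pair). The fit gave 1.18 ± 0.16 (adjusted p = 6.63e-07), and 0.92 with an adjusted p of 0.216 when all cells were summed. It was 0.10 without small intestine control and 2.14 without colon control. Thinned shares of cells with an Itgae UMI were 18.2%, 6.57%, 8.44% and 2.80%.

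Cd160 (chr3:96798763-96829351), an immunoglobulin-family receptor of intraepithelial and cytotoxic lymphocytes, showed the same arrangement. Cd160 measured 291, 62.0, 92.5 and 34.1 CPM, again with small intestine KO below colon control. Its log2 fold change was 1.30 ± 0.17 (adjusted p = 3.42e-05), and -0.03 without small intestine control. Thinned shares were 27.9%, 7.36%, 9.61% and 3.85%. Xcl1, a chemokine that attracts cross-presenting dendritic cells, measured 86.7, 183, 43.5 and 96.4 CPM (0.94 ± 0.14, adjusted p = 1.34e-05). In Xcl1 the KO library was the higher in each tissue, the reverse of Itgae and Cd160, and small intestine control lay below colon KO.

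Rgs1, which dampens chemokine receptor signals, measured 1734, 2047, 1145 and 1463 CPM with no overlap (0.52 ± 0.13, adjusted p = 0.0134). Abi3, an adaptor of actin remodelling, measured 123, 163, 66.4 and 94.9 CPM (0.81 ± 0.14, adjusted p = 0.000121). Its neighbour on the other strand, Gngt2, overlaps it and was also higher (0.71 ± 0.14, adjusted p = 0.000719), with 0.00 without small intestine KO. Of the lymph exit and central memory genes 1 of 17 tested members was higher (Txk) and 1 lower (Ly6c2). S1pr1, the receptor for lymph exit, measured 52.5, 48.9, 84.5 and 35.1 CPM and did not pass (-0.23 ± 0.26, adjusted p = 0.788). The median of that list was -0.49 in the control pair and 0.84 in the KO pair. Ly6c2, a surface marker of effector and memory T cells, measured 21.1, 14.2, 62.4 and 32.0 CPM (-1.46 ± 0.18, adjusted p = 2.39e-07).

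**Figure D3:**
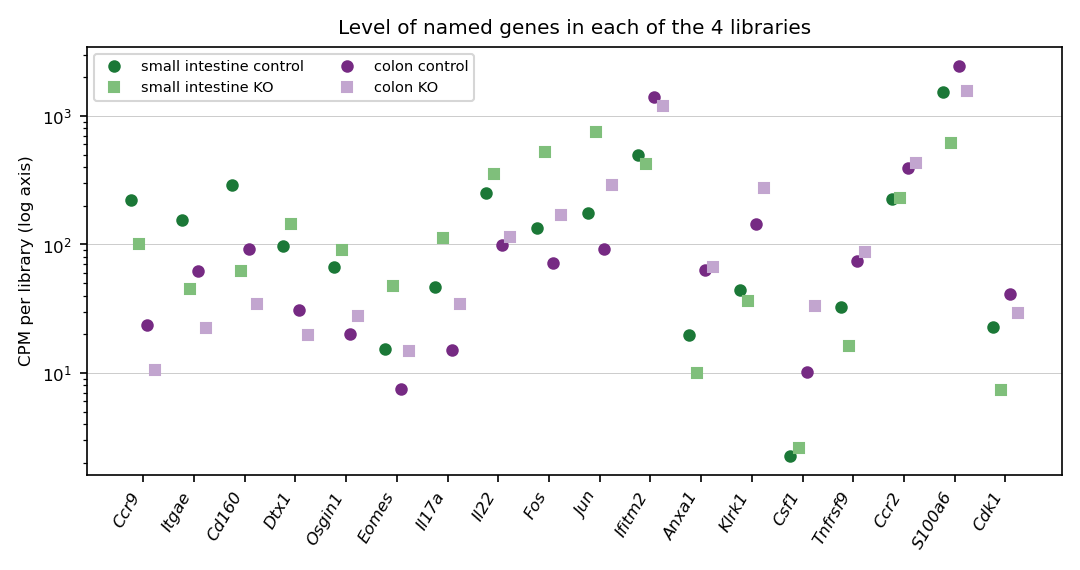
CPM of 18 named genes in each of the 4 libraries, on a logarithmic axis. Both small intestine libraries lie above both colon libraries for Ccr9, Dtx1, Osgin1, Eomes, Il17a and Il22, and below them for Ifitm2, Anxa1, Klrk1, Csf1, Tnfrsf9, Ccr2, S100a6 and Cdk1. Itgae, Cd160, Fos and Jun overlap between the tissues.

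The 2 mucosal cytokines of type 17 cells were higher in the small intestine. Il17a (chr1:20730905-20734496), which drives epithelial defence and neutrophil recruitment, measured 46.9 and 113 CPM there against 14.99 and 34.3 CPM in the colon. The tissues did not overlap, and the KO library was the higher in each (1.66 ± 0.16, adjusted p = 1.74e-10). These levels rested on few cells: in small intestine KO 11 cells held an Il17a UMI, and 10 of them held 99.5% of the UMIs. Thinned shares were 2.34%, 1.41%, 1.10% and 0.673%, beside 0.334%, 0.626%, 0.194% and 0.561% for the epithelial gene Epcam, which T cells should lack. The colon KO share of Il17a lay near its Epcam share, which does not measure background of Il17a itself. In colon KO 6 cells held 10 or more Il17a UMIs, and 10 cells held 91.9% of them.

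Il22 (chr10:118204942-118210047), which prompts epithelium to secrete antimicrobial proteins, measured 250 and 355 CPM in the small intestine and 99.2 and 114 CPM in the colon (1.46 ± 0.14, adjusted p = 1.45e-10). It also passed with the batch 1 colon libraries added (adjusted p = 0.0313), as did Il17a (adjusted p = 0.00711). In all cells the log2 fold change was 2.33 and did not pass by edgeR (adjusted p = 0.26). With 1 or more CD3 UMIs it was 2.11 and did not pass (adjusted p = 0.0977). With 5 or more it was 1.34 and passed (adjusted p = 3.33e-08), so the value fell as the CD3 minimum rose. Cells below the CD3 minimum carried much more Il22, with 2324, 12700, 588 and 6259 CPM. In small intestine KO 110 of the 149 kept cells with an Il22 UMI held a single one. The 10 cells with the most Il22 UMIs held 50.1%, 49.85%, 52.6% and 79.7% of them. Cells with 10 or more Il22 UMIs made up 1.69%, 2.58%, 0.924% and 0.337% of kept cells, which were higher in both small intestine libraries. What RNA released by the other cells added to these levels was not tested.

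Over the Th17 list 3 of 18 tested members were higher, Il17a and Il22 among them, and none was lower, with a median of 0.01. Il23r measured 3.09, 4.204, 1.68 and 2.17 CPM, or 8 to 19 UMIs per library, and did not pass (0.88 ± 0.47, adjusted p = 0.385). The 3′ counts of Il23r do not show whether the receptor was intact, so they check no genotype label.

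Of 18 tested Th1 genes 1 was higher (Eomes) and 1 lower (Havcr2), with a median of 0.06. Each was 5.56% of the list, beside 1.93% higher and 1.84% lower over all genes. Ifng, the defining Th1 cytokine, measured 158, 384, 216 and 347 CPM, with overlapping tissues (-0.18 ± 0.14, adjusted p = 0.625). The Th1 factor Tbx21 measured 45.1, 54.1, 29.0 and 65.0 CPM (0.19 ± 0.19, adjusted p = 0.722). Eomes, a related factor of cytotoxic and memory T cells, measured 15.4, 47.3, 7.49 and 14.7 CPM and was higher in the small intestine (1.34 ± 0.21, adjusted p = 3.32e-05). Havcr2, encoding the inhibitory receptor TIM-3, measured 2.76, 3.15, 6.88 and 16.2 CPM (-1.73 ± 0.34, adjusted p = 0.000728).

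Cytotoxic granule genes showed 1 higher member of 17, Gzmk, and none lower. Gzmk, a tryptase-like granzyme, measured 130, 142, 77.3 and 66.1 CPM (0.89 ± 0.14, adjusted p = 3.56e-05). Gzma was the highest in small intestine control at 3396 CPM, against 735, 1793 and 646 CPM in the other libraries, and just missed the threshold (0.53 ± 0.16, adjusted p = 0.0737). It passed with cells thinned to 1500 UMIs (0.64, adjusted p = 0.000412), and measured -0.72 without small intestine control. Gzmb measured 841, 1175, 901 and 836 CPM (0.17 ± 0.14, adjusted p = 0.652).

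**Figure D4:**
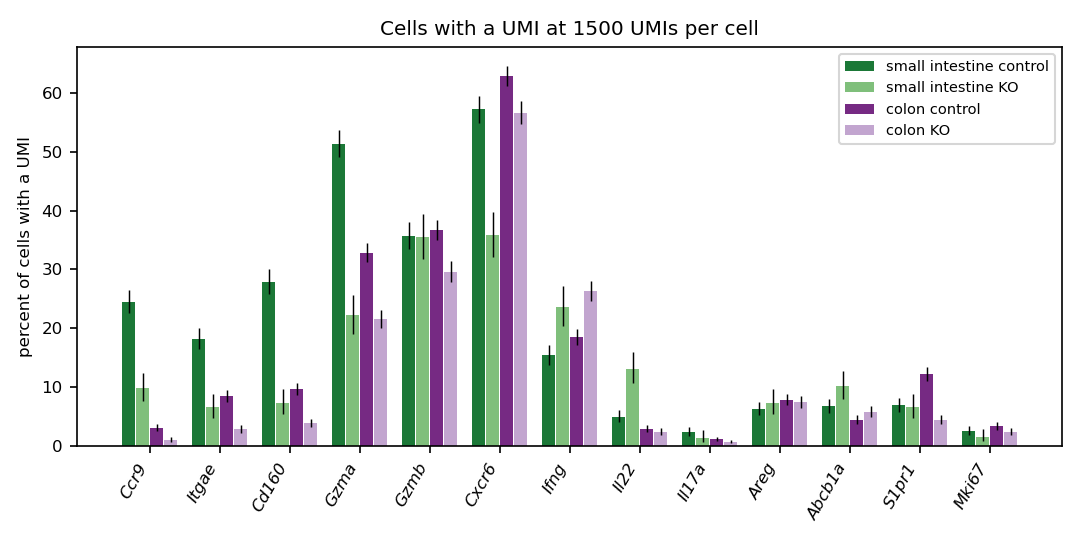
Percent of kept cells with a UMI of each gene after thinning every cell to 1500 UMIs, with exact binomial 95% intervals, in the 4 libraries. Ccr9 was seen in 24.5% and 9.86% of small intestine cells and in 3.11% and 1.01% of colon cells, and Gzma was highest in small intestine control at 51.4%.

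Of 14 tested genes of the natural killer receptor list 6 were lower in the small intestine and 2 higher (Cd160 and Slamf7), and 5 had a positive fold change. The median was -0.64, and 0.23 when all cells were summed. Klrk1 (chr6:129610323-129623864), which encodes the activating receptor NKG2D, measured 43.8, 36.3, 145 and 273 CPM (-2.25 ± 0.32, adjusted p = 0.0383). Klrc1, encoding the inhibitory NKG2A chain, measured 111, 74.6, 218 and 280 CPM (-1.42 ± 0.22, adjusted p = 0.00881), and Klrc2, encoding its activating relative NKG2C, 27.8, 24.7, 51.0 and 99.5 CPM (-1.37 ± 0.25, adjusted p = 0.0217). None of the 3 overlapped between tissues, and each differed more in the KO pair (-2.88, -1.90 and -1.97) than in the control pair (-1.70, -0.96 and -0.85). The difference between pairs did not pass edgeR's test for any of the 3. Klrk1, Klrc2 and Klrc1 are neighbours on chromosome 6, and Klrc1 and Klrc2 are close relatives in sequence, so 3′ reads could be shared between these 2. Klrg1, a receptor of terminal effector cells, measured 9.10, 9.98, 19.1 and 17.0 CPM (-0.98 ± 0.24, adjusted p = 0.00779).

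Genes of the regulatory T cell list were lower in the small intestine: 7 of 16 tested members were lower and none higher, with a median of -0.67 (-0.62 in the control pair, -0.53 in the KO pair). Foxp3, the regulatory T cell lineage factor, was counted as 1 and 3 UMIs in the small intestine and 56 and 18 in the colon, or 0.162, 1.58, 4.94 and 2.17 CPM, and passed (adjusted p = 0.021). The log2 ratio was -2.35 in the control pair and -0.30 in the KO pair, and Foxp3 did not pass with limma (adjusted p = 0.204) or with cells thinned to 1500 UMIs (adjusted p = 0.168). The 7 also held genes that activated effector T cells express. Il2ra, the high-affinity interleukin-2 receptor chain, measured 21.8, 19.4, 35.3 and 46.1 CPM (-0.93 ± 0.18, adjusted p = 0.000602). Tnfrsf9, the costimulatory receptor 4-1BB, measured 32.3, 16.3, 74.0 and 87.7 CPM (-1.66 ± 0.27, adjusted p = 0.018). Tnfrsf4, the costimulatory receptor OX40, measured 624, 564, 954 and 1055 CPM (-0.78 ± 0.14, adjusted p = 0.00015). In these 3 genes both small intestine libraries were below both colon libraries. Capg, an actin-capping protein on the same list, measured 222, 190, 364 and 503 CPM (-1.07 ± 0.15, adjusted p = 7.64e-05). Il10, whose product limits inflammation, measured 1.30, 10.5, 2.73 and 11.1 CPM and did not pass (-0.47 ± 0.37, adjusted p = 0.622).

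Costimulatory and TNF receptor genes included 5 lower members and 1 higher of 16 tested (median -0.06). Besides Tnfrsf4 and Tnfrsf9, Tnfsf11, encoding the cytokine RANKL, measured 61.1, 104, 99.2 and 243 CPM, with small intestine KO above colon control (-0.98 ± 0.15, adjusted p = 3.41e-05). Of 22 tested secreted factors 4 were higher and 2 lower. The macrophage growth factor Csf1 was counted as 14 and 5 UMIs in the small intestine and 116 and 276 in the colon, or 2.27, 2.63, 10.2 and 33.3 CPM (-2.77 ± 0.32, adjusted p = 1.89e-07). Socs2, a feedback inhibitor of cytokine signals, measured 43.5, 33.6, 72.2 and 89.4 CPM (-1.04 ± 0.17, adjusted p = 0.000117). Bcl2l1, encoding the survival protein BCL-XL, measured 45.6, 51.0, 59.4 and 109 CPM (-0.73 ± 0.16, adjusted p = 0.00701).

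Of 16 tested S100, annexin and galectin genes 9 were lower in the small intestine, none higher and none had a positive fold change (median -0.98). The median was -0.53 in the control pair and -1.34 in the KO pair. Anxa1 (chr19:20373428-20390944), a phospholipid-binding protein that restrains inflammation, measured 19.8, 9.98, 62.8 and 67.2 CPM (-2.03 ± 0.20, adjusted p = 6.39e-07). S100a6, a small calcium-binding protein, measured 1537, 616, 2429 and 1564 CPM (-1.02 ± 0.15, adjusted p = 0.000121), so that small intestine control and colon KO were nearly level. The intermediate filament gene Vim measured 726, 339, 1178 and 849 CPM (-1.03 ± 0.15, adjusted p = 3.41e-05). S100a4, a promoter of cell motility, measured 390, 99.3, 669 and 313 CPM and overlapped between tissues (-1.20 ± 0.19, adjusted p = 0.00415). Rhoc, a motility GTPase, measured 12.8, 24.2, 29.3 and 43.3 CPM (-1.06 ± 0.19, adjusted p = 0.000157).

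The antiviral membrane proteins of the IFITM family gave the call that held in the most alternatives. Ifitm2 (chr7:140954837-140955987) measured 501 and 419 CPM in the small intestine and 1397 and 1196 CPM in the colon, with almost equal pairs (-1.48 and -1.51). Its log2 fold change was -1.52 ± 0.14 (adjusted p = 3.81e-11), 2.87-fold, and it passed in 13 of 16 alternatives, more than any other gene named here. Ifitm3 measured 164, 136, 421 and 276 CPM (-1.23 ± 0.14, adjusted p = 2.28e-08) and passed in 11 of 16. Both genes lie within 1 family on chromosome 7, and near-identical copies could share 3′ reads.

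Of 29 tested interferon-stimulated genes outside that family 4 were higher in the small intestine (Isg15, Oas1a, Rtp4, Xaf1), none was lower and 22 had a positive fold change (median 0.16), and DESeq2 called 1. Isg15, a ubiquitin-like antiviral protein, measured 118, 221, 45.3 and 145 CPM (0.97 ± 0.17, adjusted p = 0.00142). Oas1a, an antiviral synthetase, measured 3.90, 25.7, 1.85 and 7.96 CPM (1.43 ± 0.31, adjusted p = 0.00252). In both genes small intestine control lay below colon KO. Leaving out 1 library gave a lowest value of 0.17 for Isg15, without colon control, and of -0.36 for Oas1a, without small intestine KO. Xaf1, a pro-apoptotic interferon target, measured 27.4, 41.0, 20.6 and 21.8 CPM (0.61 ± 0.18, adjusted p = 0.0436).

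The promoters of Isg15 and Oas1a are shown because they carry the interferon response element in its GAAANNGAAA form. It was searched on both strands from 250 bases before to 50 after each start site in the RefSeq table (GRCm38.p6). It was found in 14 of the 22 listed genes that matched the table and in 3.44% of 32851 promoters. A match is a description of sequence and shows no binding. The stretches run 5′ to 3′ on the gene's strand, with the motif in capitals; the first is chr4:156200839-156200918 and the second chr5:120907526-120907605, both on the minus strand.
Isg15: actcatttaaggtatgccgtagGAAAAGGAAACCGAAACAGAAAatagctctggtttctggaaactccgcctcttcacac
Oas1a: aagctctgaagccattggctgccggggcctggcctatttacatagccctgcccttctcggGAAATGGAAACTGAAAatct

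Immediate early genes, which activated cells switch on within minutes, were higher in the small intestine for 6 of 19 tested members, lower for none, with a median of 0.11. Fos (chr12:85473890-85477273), a subunit of the AP-1 factor, measured 134, 522, 71.8 and 170 CPM (1.24 ± 0.15, adjusted p = 3.68e-06). Its partner Jun measured 177, 747, 92.2 and 290 CPM (1.13 ± 0.14, adjusted p = 1.61e-07). In both genes the KO library was the higher in each tissue, and small intestine control lay below colon KO. Zfp36, which destabilises cytokine messenger RNA, measured 67.4, 183, 37.5 and 54.2 CPM without overlap (1.27 ± 0.18, adjusted p = 0.000594). Its relative Zfp36l1 measured 240, 306, 158 and 165 CPM (0.72 ± 0.14, adjusted p = 0.000409). Maff, a small partner of AP-1 type factors, measured 57.0, 142, 29.1 and 88.6 CPM, again with small intestine control below colon KO (0.80 ± 0.15, adjusted p = 0.000327).

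Tissue dissociation is known to induce these genes, and heat shock genes with them. The heat shock and dissociation list summed to 5848, 16030, 5535 and 20930 CPM, so that it was higher in both KO libraries and similar in the 2 tissues. Of its 18 tested members 1 was higher (Dnajb4) and none lower, with a median of -0.05. The part of dissociation in the Fos and Jun difference was not tested. Without small intestine KO the log2 fold change was 0.09 for Fos and -0.18 for Jun.

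Promoter stretches of 3 of these genes are shown for their known response elements. TGACG is the core of the cyclic AMP and AP-1 related element. It was found on either strand in 10 of 18 listed genes in the table and in 20.8% of all promoters. Of the 6 listed genes that were called, 2 held it (Fos and Maff). The CArG box, bound by serum response factor, was found in 1 of the 18, Zfp36, and in 1.63% of all. The stretches are chr7:28379249-28379328 (minus strand), chr12:85473790-85473869 (plus strand) and chr15:79347440-79347519 (plus strand), with the motif in capitals.
Zfp36: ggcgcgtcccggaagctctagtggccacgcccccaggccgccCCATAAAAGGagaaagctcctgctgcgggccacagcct
Fos: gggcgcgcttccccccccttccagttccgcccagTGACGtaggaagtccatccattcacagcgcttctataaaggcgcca
Maff: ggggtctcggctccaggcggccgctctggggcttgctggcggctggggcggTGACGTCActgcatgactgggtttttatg

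Several leading genes belonged to none of these programmes. Dtx1 and Dtx4 encode Deltex proteins of the Notch pathway, and Dtx1 is linked to T cell anergy. Dtx1 (chr5:120680202-120711927) measured 98.1, 144, 31.1 and 19.8 CPM (2.18 ± 0.31, adjusted p = 0.037). Dtx4 measured 48.7, 62.0, 19.1 and 24.4 CPM (1.32 ± 0.16, adjusted p = 1.61e-07), with near-equal pairs (1.30 and 1.31), and passed in 11 of 16 alternatives. Neither gene overlapped between tissues.

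Osgin1, an oxidative stress response gene, measured 66.8, 89.9, 20.01 and 27.9 CPM, with pairs of 1.69 and 1.66 (fit 1.69 ± 0.16, adjusted p = 1.19e-10), and passed in 12 of 16 alternatives. The list of metallothionein and oxidative stress genes did not move with it: 0 of 17 tested members passed by edgeR or DESeq2, with 4 at an unadjusted p under 0.05. Atp8a2, a phospholipid flippase, measured 60.6, 27.9, 19.04 and 8.56 CPM (1.66 ± 0.18, adjusted p = 8.99e-09), but overlaps Nupl1 on the same strand. AY036118 lies within a ribosomal RNA related locus that overlaps Gm42418 on the other strand. It measured 20.5, 95.1, 9.34 and 19.4 CPM (1.73 ± 0.24, adjusted p = 0.00107). Cldnd1, a claudin-domain protein, was lower at 105, 146, 216 and 371 CPM (-1.21 ± 0.14, adjusted p = 3.34e-08). Sfn, which encodes the 14-3-3 sigma protein, was lower at 11.2, 20.5, 18.1 and 66.0 CPM, with overlap between tissues (-1.18 ± 0.21, adjusted p = 0.000841).

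Genes of the luminal environment formed short lists, of 7 to 10 tested members. A single call was 14.3% of the xenobiotic and bile acid list and 10% of the retinoic acid list. Over all genes 3.76% were called in either direction. Abcb1a (chr5:8660077-8748575), an efflux pump that protects gut T cells from bile acids, measured 45.6, 83.6, 27.3 and 40.8 CPM (0.86 ± 0.16, adjusted p = 0.000284). Both small intestine libraries were the higher, and the thinned shares were 6.79%, 10.2%, 4.46% and 5.75%. It was the 1 member called of 7 tested xenobiotic and bile acid genes. None of 8 aryl hydrocarbon receptor genes passed by edgeR or DESeq2, with 2 at an unadjusted p under 0.05. Ahr itself measured 57.3, 114, 63.3 and 73.9 CPM (0.20 ± 0.16, adjusted p = 0.634). Of 10 retinoic acid pathway genes, Ccr9 alone passed. Ptger4, a prostaglandin E2 receptor, measured 146, 98.8, 74.0 and 73.2 CPM (0.71 ± 0.15, adjusted p = 0.00265). Smurf2, a ubiquitin ligase of the TGF-beta pathway, measured 19.98, 19.97, 11.3 and 9.65 CPM (0.89 ± 0.22, adjusted p = 0.011).

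**Figure D5:**
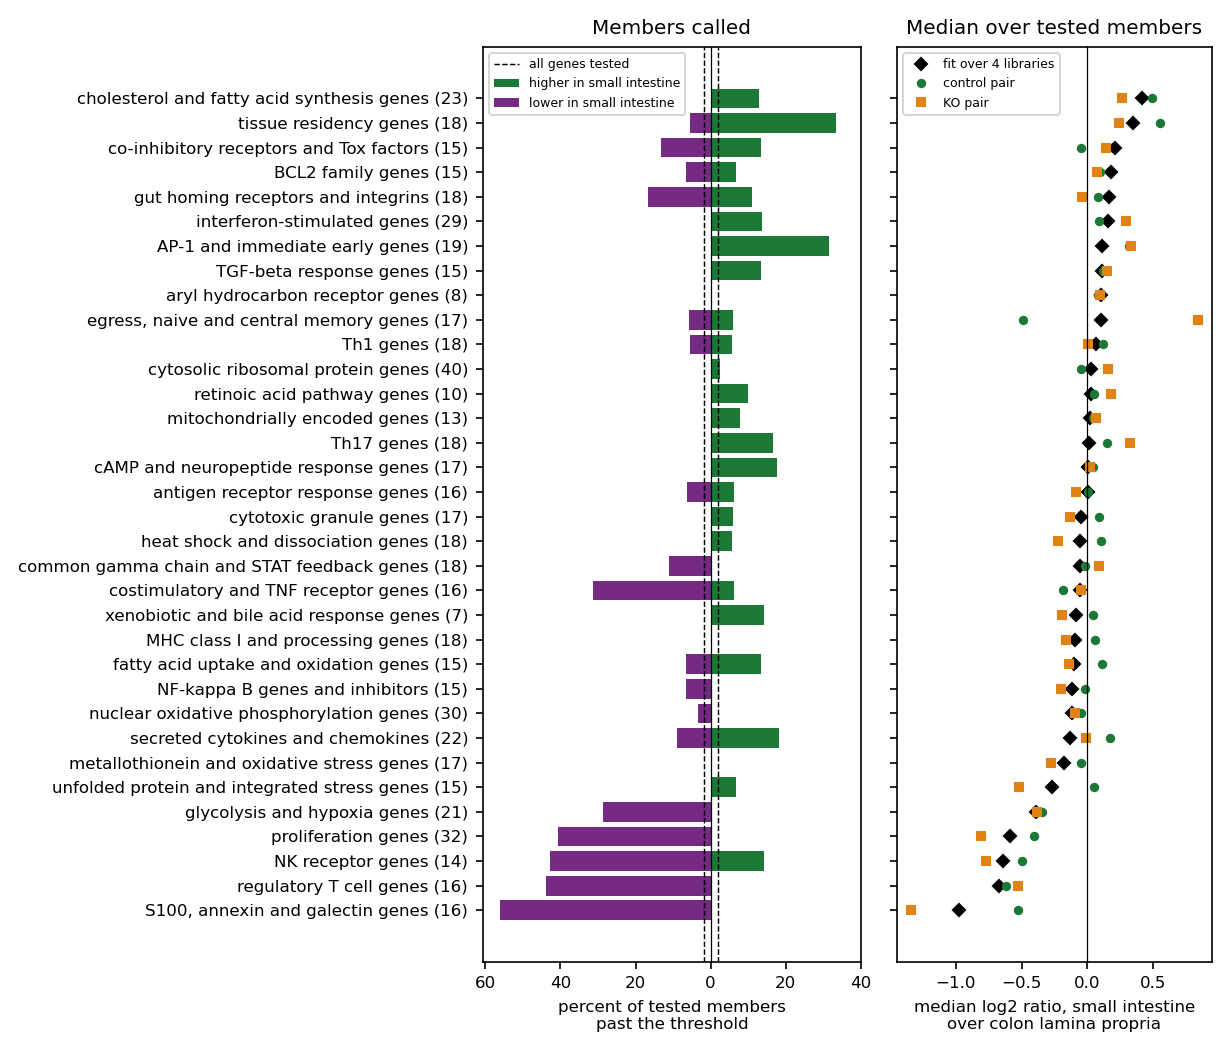
Left, percent of the tested members of each list (number in brackets) that passed the threshold as higher or lower in the small intestine, with the share over all genes tested (1.93% and 1.84%) as dashed lines. Right, median log2 ratio of each list in the fit, the control pair and the KO pair; S100, annexin and galectin genes are lowest at -0.98 and cholesterol and fatty acid synthesis genes highest at 0.42.

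Of 23 tested cholesterol and fatty acid synthesis genes 3 were higher, Idi1 and Msmo1 among them, none was lower and 22 had a positive fold change (median 0.42). DESeq2 called 0 of the 23. Idi1, an enzyme of isoprenoid synthesis, measured 70.0, 69.4, 32.9 and 46.1 CPM (0.84 ± 0.16, adjusted p = 0.000545). The sterol oxidase Msmo1 measured 66.6, 62.5, 33.9 and 47.9 CPM (0.68 ± 0.16, adjusted p = 0.00893). Both genes separated the tissues.

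Glycolysis and hypoxia genes were lower for 6 of 21 tested members and higher for none (median -0.39, -0.34 in the control pair and -0.38 in the KO pair). Tpi1, a glycolytic isomerase, measured 60.6, 38.4, 120 and 72.1 CPM (-0.98 ± 0.15, adjusted p = 2.26e-05). Aldoa, the aldolase of muscle and lymphocytes, measured 538, 512, 791 and 755 CPM (-0.58 ± 0.13, adjusted p = 0.00481). Slc16a3, a lactate exporter, measured 6.66, 3.15, 15.3 and 6.63 CPM (-1.19 ± 0.29, adjusted p = 0.0101), so that small intestine control and colon KO were level. Of 30 nuclear oxidative phosphorylation genes 1 was lower, and of 40 cytosolic ribosomal protein genes 1 was higher.

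Proliferation genes were lower in the small intestine for 13 of 32 tested members and higher for none (median -0.59, -0.41 in the control pair and -0.81 in the KO pair). DESeq2 called 1 of the 32. Ube2c, a ubiquitin enzyme of mitotic exit, measured 40.9, 19.97, 94.9 and 47.9 CPM (-1.25 ± 0.16, adjusted p = 6.69e-07). Cdk1, the mitotic kinase, measured 22.9, 7.36, 41.0 and 29.2 CPM (-1.17 ± 0.21, adjusted p = 0.000916). Cenpf, a kinetochore protein, measured 8.77, 3.15, 21.1 and 13.6 CPM (-1.47 ± 0.26, adjusted p = 0.000182). Birc5, encoding survivin, measured 73.1, 21.0, 113 and 55.0 CPM and overlapped between tissues (-0.92 ± 0.17, adjusted p = 0.000775). Cells with a UMI of the cycling marker Mki67 were few at 1500 UMIs per cell, with 2.50%, 1.56%, 3.36% and 2.39%.

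Several called genes were close neighbours. Among 7495 pairs of adjacent tested genes within 100000 bases, both genes were called in 19 pairs, and the direction was the same in 18. Of the 18, 3 overlapped (Ccr9 with Lztfl1, Abi3 with Gngt2, and Gm42418 with AY036118). Klrk1, Klrc2 and Klrc1, then S100a4 and S100a6, were such neighbours that were lower in the small intestine together.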

How the data were processed

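Libraries were made with the 10x Chromium 3′ version 2 chemistry, per the labels' protocols, and Cell Ranger 2.0.2 with build mm10 is listed in the submitters' processing notes. The deposited values were counts (UMIs) of 18601 genes in 32763 cells, with a cell table of library, genotype, tissue and batch. The sources used here do not state the authors' filters on cells. Another 2 columns of that table repeat the labels and were not used. Groups came from the labels. Doublets were not called.

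UMIs were summed per library over cells with 3 or more CD3 UMIs. Genes passing filterByExpr (10233) were scaled by TMM (factors 0.966 to 1.02) and tested with edgeR 4.0.16, quasi-likelihood with robust dispersions, genotype as a block and Benjamini-Hochberg adjustment at 0.05. The SE is the log2 fold change over the square root of F. Pair ratios add 1 CPM. The genotype difference used all 12 libraries with batch as a term. With 2 libraries against 2, an exact permutation test cannot give a p below 0.333. Shares of cells were compared after thinning to 1500 UMIs, which left out shallower cells (271 and 174 in the small intestine, 155 and 584 in the colon). Coordinates are from GENCODE M21 (GRCm38), promoters from RefSeq.

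The members, the 34 gene lists and the 16 marker lists were chosen with earlier results of these data known. Named genes are 17 fixed genes, the 15 largest called differences each way at 20 CPM or more on average, and up to 4 members per list by p. Cxcr6, Gngt2, Slamf7, Penk and Lypd8 fall outside that rule and were named after their values were seen. Some genes that the rule takes up are left out of the text. The code was tested on simulated data. Alternatives changed the CD3 minimum, depth, filter, scaling, tool (DESeq2 1.42.0, limma 3.58.1), block and libraries.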

Additional observations from a re-analysis of the deposited data

Results flagged for a closer look

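Cells below the CD3 minimum lay outside the comparison and held signals that stood above those of the other libraries. They made up 49.4% of small intestine KO, against 8.04% of small intestine control, 3.25% of colon control and 10.98% of colon KO. In these cells Il22 measured 12700 CPM in small intestine KO, with 2324 in small intestine control, 588 in colon control and 6259 in colon KO. Kit, a growth factor receptor of mast cells and innate lymphoid cells, measured 185 CPM in small intestine KO and 33.0, 9.80 and 66.7 CPM in the same order of the other libraries. Il23r measured 81.4 CPM there, against 9.89, 13.1 and 23.7 CPM. These differences were not tested, since each group has 1 library.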

How the results depend on the processing

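Against 197 genes higher and 188 lower in the small intestine, summing all cells gave 26 and 52, thinning libraries to equal totals 52 and 50, DESeq2 48 and 39, and no filter on low counts 269 and 341. DESeq2 called 2 of 21 glycolysis and hypoxia genes, 3 of 16 regulatory T cell genes and 4 of 18 tissue residency genes. It called 4 of 14 natural killer receptor genes, 4 of 19 immediate early genes and 7 of 16 S100, annexin and galectin genes. Without the genotype block none passed by edgeR, with 271 and 256 at an unadjusted p under 0.05. With all 8 batch 2 libraries in 1 fit 0 were higher and 1 lower, with 492 and 490 unadjusted. Leaving out 1 library gave 0 to 17 higher and 0 to 55 lower. Those fits have no genotype block and a lone library in 1 tissue, which is assumed to vary like the others; without small intestine control, edgeR called none in either direction (481 and 521 unadjusted). The other CD3 minimums, cell thinning, DESeq2 size factors and limma gave counts within 1.5 times of the main ones. No alternative moved the median over all genes by over 0.05.

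The 4 libraries share the label replicate 2, so no pairing by number exists among them. A fit with the replicate block, which adds the 2 colon libraries of replicate 1, called 6 higher (Il17a, Il22, Osgin1, Dtx4, Fabp2, Lypd8) and 5 lower (Ifitm2, Ifitm3, Anxa1, Agr2, Spink4); the 2 genotypes then supply the spread. The genotype difference gave 0 genes without the replicate block, 0 with all cells and 1 with DESeq2 (156 unadjusted).

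Some named genes changed sign when 1 library was left out, with lowest and highest log2 fold changes of -0.32 and 0.04 for Cd4, -0.89 and 0.44 for Ifng, -2.44 and 0.86 for Il10, -0.45 and 0.77 for Tbx21, -0.72 and 1.61 for Gzma, -0.31 and 0.73 for Ahr, and -0.73 and 0.48 for S1pr1. The same range was -0.03 to 2.33 for Cd160, -0.18 to 2.34 for Jun, -0.11 to 1.76 for Maff, -0.36 to 2.83 for Oas1a, -6.09 to 9.39 for Reg3b and -0.09 to 0.44 for Gzmb. The lowest values came without small intestine control for Gzma, Cd160 and Reg3b, and without small intestine KO for Jun, Maff and Oas1a. With all cells Tbx21 gave -0.05 and Gzmb -0.11, and with thinned cells Il10 gave 0.03. Without changing sign, values came near 0 for Birc5 (-0.22), Sfn (-0.25), Tnfsf11 (-0.27), Bcl2l1 (-0.30), S100a4 and Slc16a3 (-0.37 each), S100a6 (-0.42), Xcl1 (0.25), Fabp2 (0.28), Abcb1a (0.37) and Eomes (0.43). The fits with 1 library left out set 1 genotype of a tissue against both genotypes of the other, without a block. A difference between genotypes therefore enters these values along with the tissue difference. How much of each change it made up was not tested.

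Small intestine KO, with 813 kept cells, limits the depth of every comparison. Genes counted a few times there, such as Foxp3 and Csf1, carry wide counting error.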

Other observations

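Ribosomal protein pseudogenes, a group chosen after their values were seen, were higher in the small intestine in 10 of 13 tested copies and lower in none. The median log2 fold change was 0.72, and the 10 ran from 0.67 to 0.95. The 13 parent genes had a median of 0.03, and none passed by edgeR or DESeq2, with 1 at an unadjusted p under 0.05. The pseudogenes summed to 2630 and 3458 CPM in the small intestine and 1736 and 1827 CPM in the colon, in control and KO in turn, so that the tissues did not overlap. Rpl23a-ps3 alone measured 963, 1328, 642 and 749 CPM. Copies of a ribosomal gene are near-identical in sequence, and the sources used here do not say how reads were divided between them.

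Lypd8, an epithelial protein that keeps bacteria from the colon wall, gave a log2 fold change of 2.98 ± 0.29 (adjusted p = 1.9e-10) with edgeR. It was counted as 290 and 1 UMIs in the small intestine and 66 and 1 UMIs in the colon, so that nearly all of its UMIs came from the control libraries.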
